A study of Mus musculus with 4 samples.

Results

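Adrenomedullin and the genes that make up its receptors were followed in single cells of the mouse brain vasculature, in mice fed PLX5622 and in mice fed control diet. The 5 members are Adm, Calcrl, Ramp1, Ramp2 and Ramp3, taken by gene symbol from the 32285 genes of the count tables, and all 5 were found. C57BL6 mice received diet with PLX5622 at 1200 ppm, an inhibitor of the CSF1 receptor on which microglia depend, or control diet, in both cases for 1 month. Brain cells carrying CD31, which marks endothelium, were collected by flow cytometry after meninges, cerebellum and olfactory bulbs had been taken away. Each diet has 2 droplet libraries of the 10x Genomics 3 prime chemistry, made from 3 mice across both libraries. A library is therefore not known to be 1 animal, and every p-value here measures the spread between libraries, which may be technical. The age of the mice is not given here.

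Adrenomedullin is a small secreted peptide that widens blood vessels and helps endothelial cells keep their barrier, and its gene is a classical target of the hypoxia-inducible factors (HIF). Its receptor is a pair of proteins: the G protein-coupled receptor CLR, encoded by Calcrl, reaches the cell surface only together with a receptor activity-modifying protein (RAMP). CLR with the product of Ramp2 or Ramp3 binds adrenomedullin best, whereas CLR with the product of Ramp1 is the receptor of calcitonin gene-related peptide, a dilator released by sensory nerves. The bound receptor acts mainly through the stimulatory G protein and cyclic AMP. Ramp2 is known in mice to be needed in endothelial cells for intact vessels.

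The 4 libraries held 19044018 and 26949278 unique molecules (UMIs) on PLX5622 diet and 11186648 and 38600208 UMIs on control diet. Barcodes passing the limits (1000 UMIs or more, 500 genes or more, mitochondrial share up to 10%) numbered 3989 and 3670 on PLX5622 diet and 1696 and 5509 on control diet. Between 1 and 6 barcodes were shared by any pair of libraries. All cells were clustered without the 5 members, and the endothelial clusters again without the members and their related genes. This gave 13620 endothelial-like cells, of which 1908 were arterial-like, 7698 capillary-like and 3026 venous-like and 988 stayed unnamed in a cluster with few UMIs. The capillary-like name is the weakest of the 3: their clusters had no arterial, venous or capillary marker at 2-fold over the other endothelial clusters, and were named for capillary markers raised against arterial-like cells. The capillary markers summed to more in venous-like cells, at 6290 and 6304 CPM on PLX5622 diet and 7493 and 7326 CPM on control diet, than in capillary-like cells, at 6113 and 5947 CPM on PLX5622 diet and 6810 and 6846 CPM on control diet. Endothelial markers made up 2.35% and 2.29% of the UMIs of endothelial-like cells on PLX5622 diet and 2.31% and 2.32% on control diet, so the sorted cell type carried its defining markers in every library. Microglia markers summed to 24.3 and 26.8 CPM in endothelial-like cells on PLX5622 diet and 28.1 and 26.1 CPM on control diet. There were 201 smooth muscle-like cells, in which endothelial markers made up at most 0.0158% of UMIs in any library, and 92 pericyte-like cells with little endothelial RNA, in which that share reached 0.0572%. A further 284 droplets carried pericyte and endothelial genes together. So did 47 droplets of a mural cluster, and 27 more carried smooth muscle and endothelial genes. The 47 and the 27 were left out of the tested classes. Levels are given as counts per 1000000 (CPM) of the UMIs summed over the cells of a class in a library, which counts molecules and is not a measure per transcript length. Diet differences are log2 ratios of PLX5622 diet over control diet with their standard error. They were tested with edgeR's quasi-likelihood test on those sums, with Benjamini-Hochberg adjustment over all genes tested in the class and a threshold of 0.05. With 2 libraries per diet, the diets can lie apart without a diet effect. The share of all genes for which they did so was not counted, so a separation is a description only.

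By the GENCODE M21 annotation of GRCm38, Adm lies at chr7:110627661-110629820 on the plus strand, Calcrl at chr2:84330626-84425411 on the minus strand, Ramp1 at chr1:91179822-91225196, Ramp2 at chr11:101246028-101259546 and Ramp3 at chr11:6658521-6677475, the last 3 on the plus strand. Ramp2 shares exon bases with Vps25 on the same strand, so the reads of these neighbours may not be fully separated, and Ramp3 shares exon bases with Gm11978 on the opposite strand. The promoters of the members with the largest diet differences, Adm and Ramp3, and of the shared receptor gene Calcrl are shown because Adm is known as a HIF target. Each sequence runs 5′ to 3′ on the gene's strand from 250 bases before to 50 bases after the RefSeq start (GRCm38.p6), and capitals mark the HIF core ACGTG or GCGTG on either strand, so that CACGC in capitals is a match on the other strand.
Adm: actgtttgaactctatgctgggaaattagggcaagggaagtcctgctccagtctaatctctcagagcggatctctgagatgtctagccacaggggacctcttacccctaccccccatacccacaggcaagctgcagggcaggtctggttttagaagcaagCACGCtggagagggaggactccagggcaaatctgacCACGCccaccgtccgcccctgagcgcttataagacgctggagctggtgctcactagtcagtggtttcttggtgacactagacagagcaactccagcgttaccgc
Ramp3: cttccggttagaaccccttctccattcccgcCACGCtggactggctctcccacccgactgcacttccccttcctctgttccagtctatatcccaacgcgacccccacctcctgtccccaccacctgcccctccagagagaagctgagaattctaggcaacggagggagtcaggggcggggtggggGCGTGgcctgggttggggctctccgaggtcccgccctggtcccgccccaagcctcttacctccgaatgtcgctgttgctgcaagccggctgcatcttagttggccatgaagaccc
Calcrl: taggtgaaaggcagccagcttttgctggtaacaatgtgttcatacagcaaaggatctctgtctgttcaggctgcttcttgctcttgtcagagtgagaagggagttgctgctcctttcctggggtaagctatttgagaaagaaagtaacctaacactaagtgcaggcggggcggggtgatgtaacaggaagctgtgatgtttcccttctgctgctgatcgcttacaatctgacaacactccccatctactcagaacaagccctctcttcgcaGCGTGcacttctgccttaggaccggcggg
The windows are chr7:110627407-110627706 for Adm, chr11:6658283-6658582 for Ramp3 and chr2:84425217-84425516 for Calcrl. Adm and Ramp3 held 2 matches each, Calcrl held 1 and the window of Ramp1 held 0, which says only that these letters were not there. Of 32851 promoter windows of the same length, 14380 (43.8%) held at least 1 match, so a match does not set the members apart. ACGTG is also part of the sequence CACGTG bound by other factors, and a match is not shown to be a binding site.

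Adm, the ligand, was higher on PLX5622 diet in endothelial-like cells. Its level was 58.6 and 79.9 CPM on PLX5622 diet and 39.2 and 45.2 CPM on control diet, from 902 and 1720 UMIs and from 342 and 1456 UMIs. Both PLX5622 libraries lay above both control libraries, with the second PLX5622 library clearly the highest of the 4. The log2 difference was 0.74 ± 0.15, which passed narrowly (adjusted p = 0.0499). Adm (higher) and Ramp3 (lower) were the 2 members that passed among the 4 tested in endothelial-like cells, where 139 of 12796 genes passed (1.09%), 0.774% higher and 0.313% lower. The call on Adm was lost without control diet replicate 1 (adjusted p = 0.319) and without control diet replicate 2 (adjusted p = 0.135), although the log2 difference stayed at 0.62 and 0.92. It was also lost with a mitochondrial limit of 5% (adjusted p = 0.119).

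Adm was also higher on PLX5622 diet in capillary-like cells. The capillary-like level was 64.1 and 75.4 CPM on PLX5622 diet and 36.7 and 45.5 CPM on control diet, so that the diets did not overlap. The log2 difference was 0.76 ± 0.12 (adjusted p = 0.000449), it passed in all 8 alternatives run for capillary-like cells and ranged from 0.61 to 1.02 in them. Adm was the only 1 of 4 tested members to pass in capillary-like cells, where 1.05% of genes passed. In venous-like cells Adm stood at 70.0 and 110.2 CPM on PLX5622 diet and 50.7 and 63.3 CPM on control diet. The diets again did not overlap, but the PLX5622 libraries lay far apart, and the log2 difference of 0.68 ± 0.24 did not pass (adjusted p = 0.420). It passed in 5 of 8 alternatives, among them those without PLX5622 diet replicate 1, where it was 0.95 (adjusted p = 3.62e-08), and not without PLX5622 diet replicate 2, where it was 0.29 (adjusted p = 0.775). In arterial-like cells Adm was 23.1 and 25.7 CPM on PLX5622 diet and 24.3 and 17.4 CPM on control diet. These values overlapped, and the log2 difference of 0.35 ± 0.22 did not pass (adjusted p = 0.857, 95% interval -0.09 to 0.80). None of the 4 members tested passed in arterial-like cells with edgeR, where 0.261% of genes did. Ramp3 alone had an unadjusted p under 0.05, and DESeq2 called none of the members for which it gave an adjusted p.

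The arterial-like and capillary-like diet differences of Adm were compared in 1 model with the library as a block. The arterial-like minus capillary-like contrast was -0.37 ± 0.22 on the log2 scale, which did not pass in edgeR (adjusted p = 0.949), so a difference in response between these zones was not shown. None of the 4 members passed either interaction of zone and diet, in which 0.112% (arterial-like against capillary-like) and 0.0516% (venous-like against capillary-like) of 11639 genes passed. At an unadjusted p under 0.05 each interaction had 1 member, Calcrl in the first (-0.27 ± 0.12, adjusted p = 0.872 in edgeR) and Ramp3 in the second (-0.59 ± 0.21, adjusted p = 1 in edgeR). DESeq2 called no member in either.

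Along the vessel tree Adm was lowest in arterial-like cells. Within libraries the capillary-like level was higher than the arterial-like level by 1.25 ± 0.44 on the log2 scale (SD over 4 libraries), which is 2.38-fold, and the venous-like level exceeded the arterial-like level by 1.65 ± 0.45 (3.15-fold), both in 4 of 4 libraries. With finer clustering the venous-like excess was smaller, at 0.98 ± 0.33 (1.97-fold), and with cells thinned to 1000 UMIs it was 2.11 ± 0.66, again in 4 of 4 libraries each. With 4 libraries an exact two-sided sign-flip permutation test cannot give a p below 0.125, the value reached here for each zone difference of Adm. The order of venous-like and capillary-like cells was not firm. At the main clustering the venous-like level was higher by 0.40 ± 0.19 in 4 of 4 libraries. With finer clustering the venous-like class held 1124 cells, against 3026 at the main clustering. There the log2 of venous-like over capillary-like was -0.53 ± 0.36, lower in 4 of 4. Fine cluster 2, which had the highest mean Adm level of the 10 fine clusters described below, was named capillary-like. Its overlap with the main venous-like class was not counted, so its part in the venous-like level of Adm is not known. Adm had at least 1 UMI in 10.3% of arterial-like, 16.4% of capillary-like and 31.6% of venous-like cells, which had medians of 6209.5, 4424 and 7412.5 UMIs. With each cell thinned to 1000 UMIs, the share of cells with an Adm UMI ranged over the libraries from 0.649% to 3.14% in arterial-like cells, from 3.30% to 6.56% in capillary-like cells and from 5.38% to 9.11% in venous-like cells. Smooth muscle-like cells, which had a median of 8400 UMIs, held an Adm UMI in 1 of 201 cells (0.498%).

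**Figure D1:**
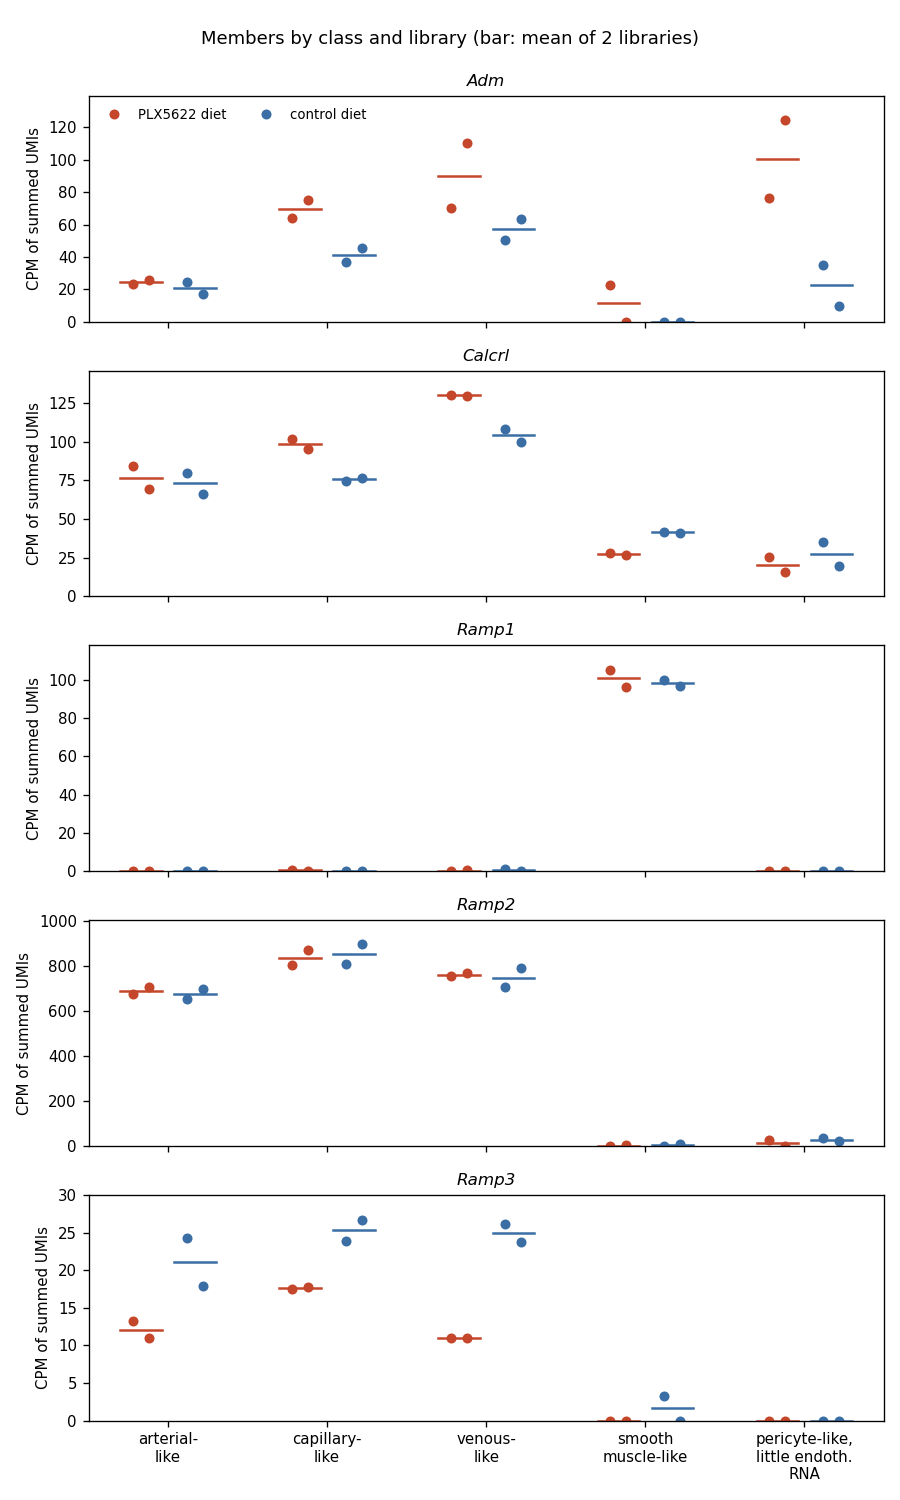
Level of each member (CPM of summed UMIs, vertical axis, own scale per panel) in 5 classes, with 1 point per library, PLX5622 diet left of control diet, and a bar at the mean of 2 libraries. Adm and Calcrl points of PLX5622 diet lie above those of control diet in capillary-like and venous-like cells, Ramp3 points lie below them, and Ramp1 stands near 100 CPM in smooth muscle-like cells and at or under 1 CPM elsewhere.

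The finer clustering resolved the Adm signal further. Among the 10 fine clusters with at least 50 cells in each library the mean level was highest in cluster 2, led by Angpt2 (a Tie2 ligand) and Meox1 (a transcription factor), with 95.8 and 142.7 CPM on PLX5622 diet and 56.6 and 75.4 CPM on control diet. It was next highest in cluster 0, led by Tmsb10 (an actin-binding peptide) and Car4 (a carbonic anhydrase), with 86.8 and 105.3 CPM on PLX5622 diet and 53.5 and 68.2 CPM on control diet. In cluster 1, led by Rgcc and the HIF target Ankrd37, it was 76.0 and 109.4 CPM on PLX5622 diet and 58.6 and 56.4 CPM on control diet. In these 3 clusters both PLX5622 libraries were above both control libraries. The same held at lower levels in cluster 3, led by Gm26917, with 46.6 and 70.2 CPM on PLX5622 diet and 33.7 and 34.2 CPM on control diet, and in the arterial-like cluster 5, with 28.7 and 27.97 CPM on PLX5622 diet and 20.1 and 14.9 CPM on control diet. Cluster 7, led by Vcam1 and Lcn2, was the only fine cluster named venous-like. In it the 2 diets overlapped, with 41.3 and 50.9 CPM on PLX5622 diet and 35.9 and 48.2 CPM on control diet. They also overlapped in cluster 4, led by Slc26a10, with 28.5 and 31.3 CPM on PLX5622 diet and 23.4 and 32.0 CPM on control diet, and in cluster 6, counted as capillary-like although Unc5b, Hey1 and Efnb2, genes known from arterial endothelium, are among its leading genes, where all 4 libraries lay between 32.1 and 35.8 CPM, as well as in clusters 8 and 9. No test was run within single fine clusters, and with 2 libraries per diet a separation there can arise without a diet effect. Cluster 2 held 11.2% and 19.3% of endothelial-like cells on PLX5622 diet and 14.7% and 9.66% on control diet. When every one of the 10 clusters counted equally, a setting added once the data had been seen that tests mean log2 CPM of 11818 genes with limma, the log2 difference of Adm was 0.51 (adjusted p = 0.0650). The pooled sums gave 0.72 with limma-voom (adjusted p = 0.0169).

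**Figure D2:**
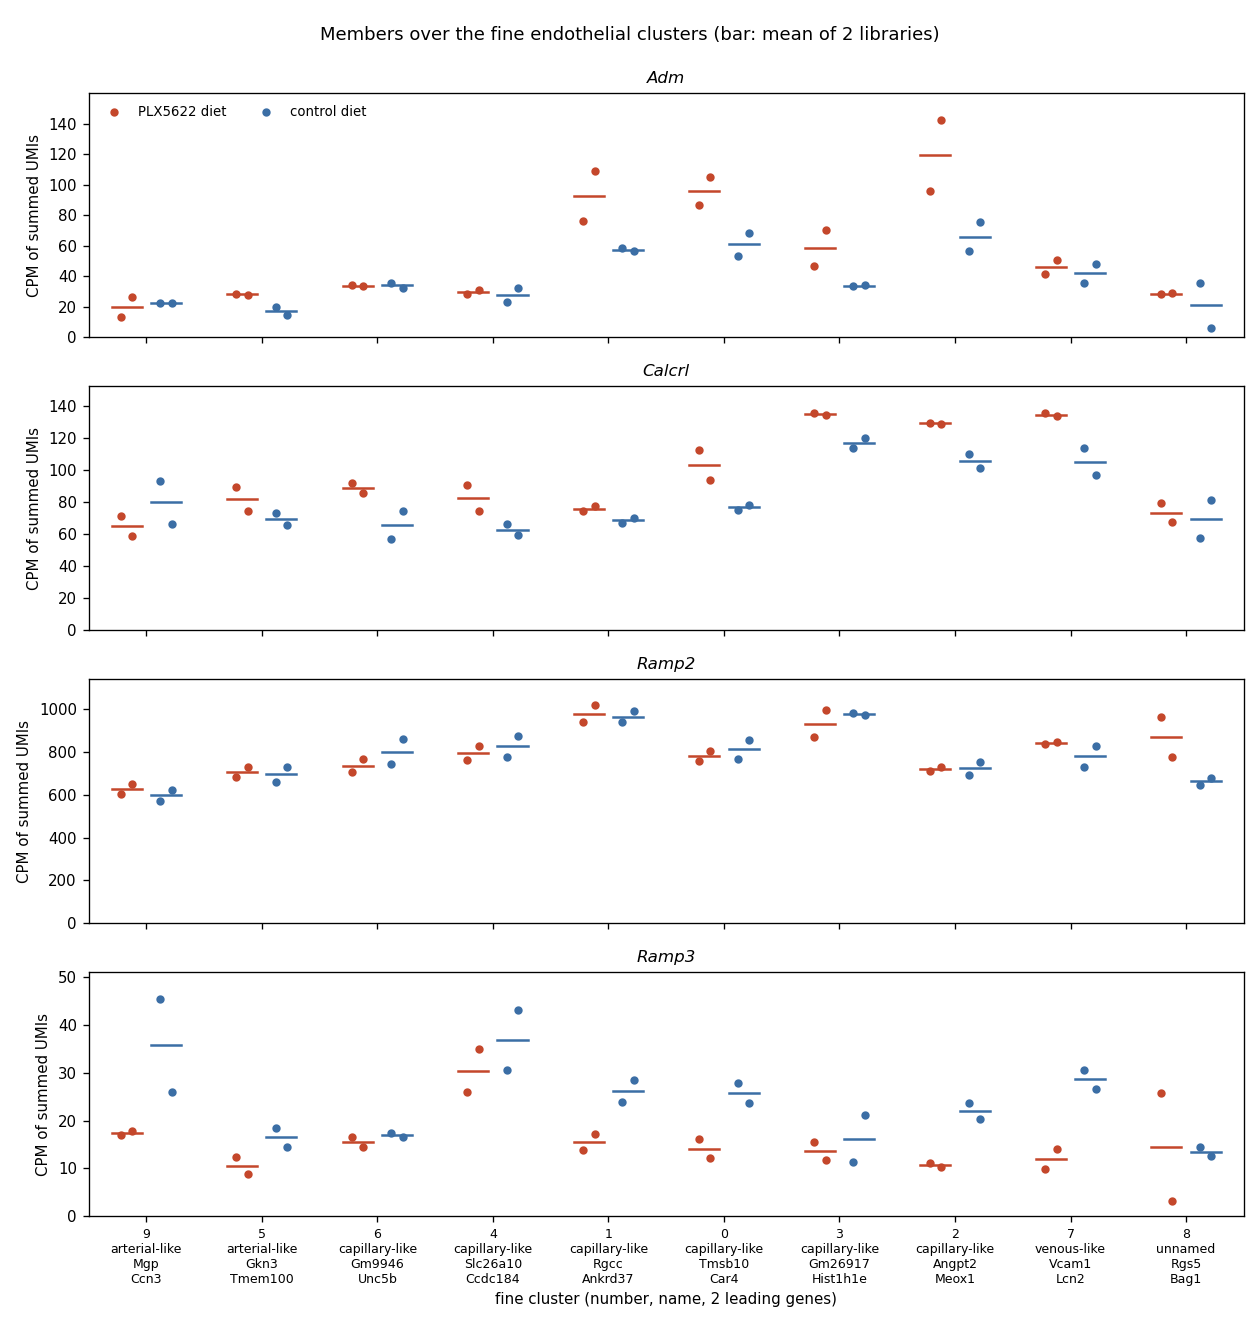
Level of Adm, Calcrl, Ramp2 and Ramp3 (CPM of summed UMIs, vertical axis, own scale per panel) in 10 fine endothelial clusters, labelled by number, name and 2 leading genes, with 1 point per library, PLX5622 diet left of control diet, and a bar at the mean of 2 libraries. Adm is highest in clusters 0, 1 and 2, where the diets are apart, and Ramp3 is highest in cluster 4 on PLX5622 diet.

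Adm was also present in pericyte-like cells, the mural cells of capillaries, and nearly absent from smooth muscle-like cells. The pericyte-like cells with little endothelial RNA held 6 and 8 Adm UMIs in 35 and 20 cells on PLX5622 diet and 1 and 1 UMI in 8 and 29 cells on control diet. These counts amount to 76.2 and 124.2 CPM on PLX5622 diet and 35.0 and 9.90 CPM on control diet, each with a wide counting interval, which for control diet replicate 1 ran from 0.886 to 195 CPM. Over the 4 libraries the level was 58.7 CPM (exact Poisson 95% interval 33.5 to 95.3, counting error only), against 56.8 CPM in endothelial-like cells. In the same 92 cells Ramp2 had 5 UMIs (18.3 CPM), against 799 CPM in endothelial-like cells. In barcodes under 100 UMIs, which hold free RNA, Adm stood at 57.8 and 79.4 CPM on PLX5622 diet and 47.3 and 43.8 CPM on control diet. The part of free or endothelial RNA in the Adm counts of these 92 cells was not tested. The pericyte-like class that could be tested, 376 cells, was mostly droplets that also held endothelial RNA, 284 of them. Endothelial markers made up 1.88% and 1.96% of its UMIs on PLX5622 diet and 1.81% and 1.93% on control diet. Its pericyte markers summed to 11596 and 7374 CPM on PLX5622 diet and 9355 and 8961 CPM on control diet. In the 92 cells they summed to 40090.5 and 43409 CPM on PLX5622 diet and 38160 and 37041 CPM on control diet. The part of endothelial RNA in the levels of the 376-cell class was not tested. In it Adm was 69.3 and 97.0 CPM on PLX5622 diet and 39.8 and 45.7 CPM on control diet, without overlap, but the log2 difference of 0.97 ± 0.31 did not pass (adjusted p = 0.292). None of the 3 members tested passed in pericyte-like cells with edgeR, where 0.0556% of genes did. Adm alone had an unadjusted p under 0.05, and DESeq2 called none. In smooth muscle-like cells 8 Adm UMIs came from 1 cell of PLX5622 diet replicate 1, and the other 3 libraries held 0, which allows up to 5.76 CPM in PLX5622 diet replicate 2 and 9.67 and 5.58 CPM on control diet.

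Calcrl, the receptor that the RAMPs bring to the surface, was slightly higher on PLX5622 diet in endothelial-like cells, short of the threshold. Its level was 107.3 and 104.1 CPM on PLX5622 diet and 87.2 and 82.1 CPM on control diet, with the diets apart and the libraries of a diet close together. The log2 difference was 0.37 ± 0.09 (adjusted p = 0.0661, 95% interval 0.18 to 0.56), and it passed in 2 of 15 alternatives, one of them without the low-count filter (adjusted p = 0.0305). The capillary-like level was 101.4 and 95.3 CPM on PLX5622 diet and 74.4 and 76.8 CPM on control diet, a log2 difference of 0.41 ± 0.11 (adjusted p = 0.0572). The venous-like level was 130.1 and 129.6 CPM on PLX5622 diet and 108.4 and 99.7 CPM on control diet, a log2 difference of 0.36 ± 0.10 (adjusted p = 0.0838). In both zones the diets were apart. The arterial-like level was 84.0 and 69.7 CPM on PLX5622 diet and 79.6 and 66.4 CPM on control diet, which overlapped, with a log2 difference of 0.11 ± 0.14 (adjusted p = 0.957).

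Calcrl was higher on the venous side in every library. The venous-like level exceeded the capillary-like level by 0.43 ± 0.08 and the arterial-like level by 0.64 ± 0.19 on the log2 scale (SD over 4 libraries, 4 of 4 libraries, exact permutation p = 0.125 each). The capillary-like and arterial-like levels did not differ beyond their spread (0.21 ± 0.23, higher in 3 of 4 libraries). Among the fine clusters the highest levels were those of cluster 3, led by the long non-coding RNA Gm26917 and Hist1h1e, with 136.1 and 134.3 CPM on PLX5622 diet and 114.0 and 120.4 CPM on control diet, and of cluster 7, with 135.5 and 134.2 CPM on PLX5622 diet and 113.8 and 97.2 CPM on control diet. At least 1 Calcrl UMI was found in 33.7% of arterial-like, 29.7% of capillary-like and 52.6% of venous-like cells, at the depths given for Adm, and in 6.52% of the 92 pericyte-like cells with little endothelial RNA at a median of 2706 UMIs.

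In smooth muscle-like cells Calcrl was lower in both PLX5622 libraries, without passing the test. It was 28.4 and 26.9 CPM on PLX5622 diet and 41.9 and 40.9 CPM on control diet, from 10 and 14 UMIs and from 13 and 22 UMIs. The 2 diets were apart, with the PLX5622 libraries lower, but the log2 difference of -0.56 ± 0.40 did not pass (adjusted p = 0.9996). Neither of the 2 members tested in smooth muscle-like cells passed or had an unadjusted p under 0.05, edgeR calling 0.053% of genes there and DESeq2 none of the members. Within libraries the smooth muscle-like level was lower than the endothelial-like level by 1.48 on the log2 scale (-1.48 ± 0.52, 4 of 4 libraries). The contrast between the 2 diet differences, a comparison chosen after seeing the data, was -0.93 ± 0.41 in edgeR (adjusted p = 0.880), where 0.0741% of 12150 genes passed. In the 92 pericyte-like cells with little endothelial RNA, Calcrl had 2 and 1 UMIs on PLX5622 diet and 1 and 2 on control diet, too few for a comparison. The 376 cells of the tested pericyte-like class were mostly droplets mixed with endothelial RNA. In them Calcrl was 90.7 and 90.0 CPM on PLX5622 diet and 99.5 and 63.6 CPM on control diet, which overlapped (0.31 ± 0.27, adjusted p = 0.9998).

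Ramp1, which turns CLR into the receptor of calcitonin gene-related peptide, was found in smooth muscle-like cells and hardly at all in endothelium. In smooth muscle-like cells it stood at 105.1 and 96.1 CPM on PLX5622 diet and 99.9 and 96.7 CPM on control diet, from 37 and 50 UMIs and from 31 and 52 UMIs. The diets overlapped, and the log2 difference of 0.05 ± 0.25 did not pass (adjusted p = 0.9996), its 95% interval of -0.46 to 0.56 leaving room for moderate changes either way. The 13620 endothelial-like cells held 21 Ramp1 UMIs, or 0.390 and 0.279 CPM on PLX5622 diet and 0.344 and 0.186 CPM on control diet, too few for the low-count filter. Within libraries the smooth muscle-like level exceeded the endothelial-like level by 8.43 ± 0.42 on the log2 scale in 4 of 4 libraries, a 344-fold difference. Ramp1 had at least 1 UMI in 44.8% of smooth muscle-like cells and in 0.103% of endothelial-like cells, which had medians of 8400 and 5018.5 UMIs. In the free RNA Ramp1 stood at 12.4 and 16.0 CPM on PLX5622 diet and 16.1 and 20.8 CPM on control diet, above its endothelial-like level. No Ramp1 UMI was found in the 92 pericyte-like cells with little endothelial RNA, which allows up to 11 CPM.

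Ramp2, the RAMP of the main endothelial adrenomedullin receptor, was detected in almost every endothelial-like cell and did not differ detectably with diet. Its level was 777 and 799 CPM on PLX5622 diet and 742 and 825 CPM on control diet, where the control values bracket the PLX5622 values. The log2 difference was 0.05 ± 0.13 (adjusted p = 0.936), with a 95% interval of -0.22 to 0.32, and it lay between -0.07 and 0.18 in the 15 alternatives. The zones also showed no diet difference that passed, with log2 differences of 0.06 ± 0.13 in arterial-like, 0.01 ± 0.14 in capillary-like and 0.06 ± 0.12 in venous-like cells (adjusted p from 0.928 to 0.995). Ramp2 was highest in capillary-like cells, where it exceeded the arterial-like level by 0.31 ± 0.05 on the log2 scale in 4 of 4 libraries and was above the venous-like level in 4 of 4 (log2 of venous-like over capillary-like -0.16 ± 0.05, exact permutation p = 0.125 each). With finer clustering the difference from venous-like cells was gone, at -0.00072 on the log2 scale. Among the fine clusters, cluster 1 was high, with 940 and 1019 CPM on PLX5622 diet and 942 and 990.1 CPM on control diet, and the arterial-like cluster 9 was low, with 606 and 649 CPM on PLX5622 diet and 573 and 625 CPM on control diet. The tested pericyte-like class stood at 599 and 659 CPM on PLX5622 diet and 676 and 654 CPM on control diet, with overlap and a log2 difference of -0.05 ± 0.16 (adjusted p = 0.9998). Smooth muscle-like cells held 0 and 1 Ramp2 UMIs on PLX5622 diet and 0 and 5 on control diet. A Ramp2 UMI was found in 91.0% of endothelial-like and 2.99% of smooth muscle-like cells, at medians of 5018.5 and 8400 UMIs.

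Ramp3, the other RAMP that gives an adrenomedullin receptor, was lower on PLX5622 diet in endothelial-like cells. Its level was 15.02 and 13.65 CPM on PLX5622 diet and 24.9 and 24.1 CPM on control diet, from 231 and 294 UMIs and from 217 and 775 UMIs. The diets were apart and the libraries of a diet close together, and the log2 difference was -0.73 ± 0.12 (adjusted p = 0.00343). The call was lost in 1 of 15 alternatives, without control diet replicate 2 (log2 difference -0.71, adjusted p = 0.0567). The share of cells with a Ramp3 UMI was 5.94% and 7.69% on PLX5622 diet and 10.98% and 12.27% on control diet, at medians of 3782 and 5769 UMIs on PLX5622 diet and 5074 and 5469 UMIs on control diet. It was 0.498% in smooth muscle-like cells, at a median of 8400 UMIs. In the free RNA Ramp3 stood at 14.04 and 10.85 CPM on PLX5622 diet and 29.3 and 18.8 CPM on control diet, close to the endothelial-like levels.

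By zone, the Ramp3 difference passed in venous-like cells. The venous-like level was 10.91 and 11.01 CPM on PLX5622 diet and 26.1 and 23.7 CPM on control diet, a log2 difference of -1.14 ± 0.18 (adjusted p = 0.000375) that passed in all 8 alternatives run for venous-like cells. Ramp3 was the 1 member of 4 tested to pass in venous-like cells, where 1.28% of genes passed. In capillary-like cells it was 17.5 and 17.7 CPM on PLX5622 diet and 23.9 and 26.7 CPM on control diet, apart but short of the threshold (-0.52 ± 0.14, adjusted p = 0.0778), and it passed in 3 of 8 alternatives. In arterial-like cells it was 13.2 and 10.99 CPM on PLX5622 diet and 24.3 and 17.9 CPM on control diet, also apart and not passing (-0.73 ± 0.25, adjusted p = 0.471). The order of the zones in Ramp3 moved when cells were thinned, in a single random draw that also gave every cell equal weight. The venous-like over arterial-like difference averaged 0.06 ± 0.28 on the log2 scale, higher in 3 of 4 libraries, but -0.56 ± 0.22 with cells thinned to 1000 UMIs, lower in 4 of 4. That of capillary-like over arterial-like was 0.41 ± 0.31, and 0.12 ± 0.35 when thinned, higher in 3 of 4 libraries each. Among the fine clusters the ratio between diets was largest in cluster 7, with 9.76 and 13.9 CPM on PLX5622 diet and 30.6 and 26.7 CPM on control diet. Cluster 4 had the highest mean Ramp3 level on PLX5622 diet, with 25.9 and 35.0 CPM, against 30.6 and 43.1 CPM on control diet, which overlapped. Cluster 4 also held 7.83% and 7.11% of endothelial-like cells on PLX5622 diet and 12.01% and 12.31% on control diet. With the 10 clusters given equal weight the log2 difference of Ramp3 was -0.60 (limma, adjusted p = 0.0464), against -0.74 for the pooled sums with limma-voom (adjusted p = 0.00433). Ramp3 was 0 in pericyte-like cells with little endothelial RNA and had 1 UMI in smooth muscle-like cells.

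**Figure D3:**
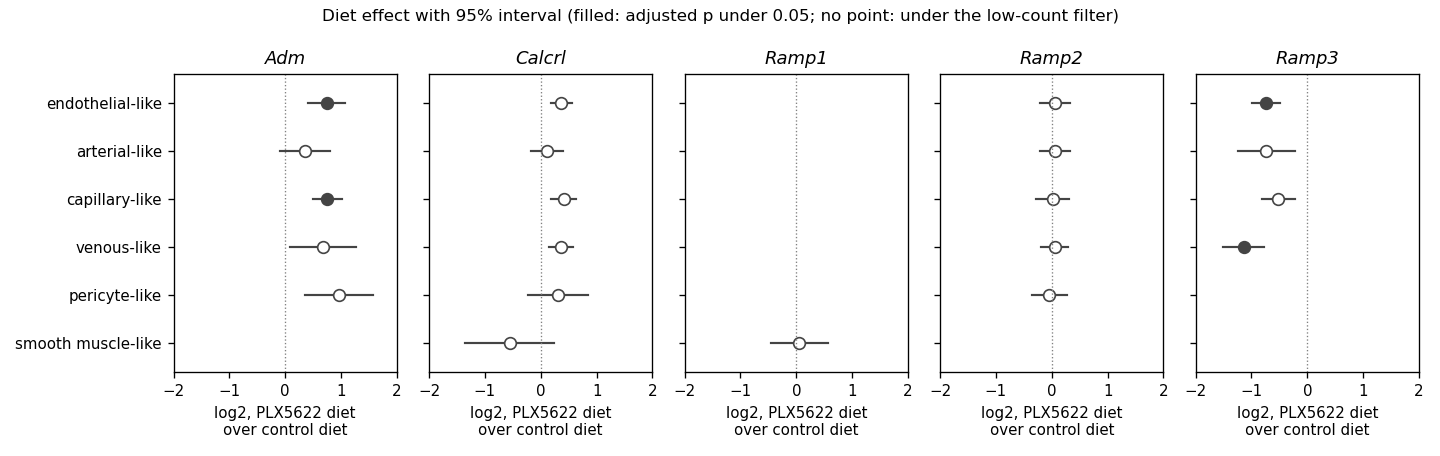
Diet difference of each member (log2 of PLX5622 diet over control diet, horizontal axis) by class, with 95% intervals from edgeR and filled points where the adjusted p was under 0.05; no point is drawn where the gene fell under the low-count filter. The filled points are Adm in endothelial-like and capillary-like cells, to the right of 0, and Ramp3 in endothelial-like and venous-like cells, to the left of 0. The pericyte-like row includes the droplets mixed with endothelial RNA.

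Ligand and receptor genes were found in the same endothelial-like cells and the shares moved with depth. Adm had a UMI in 22.03% of the 4652 cells with a Calcrl UMI and in 15.97% of the cells without one, but with each cell thinned to 1000 UMIs these shares were 5.69% and 4.90%. Ramp3 was seen in 10.3% of cells with Calcrl and 8.80% of those without, and Ramp2 in 94.0% and 89.4%. Thinned to 1000 UMIs both differences turned, to 1.25% and 2.05% for Ramp3 and 50.2% and 52.2% for Ramp2. In smooth muscle-like cells, with all UMIs counted, 26 of the 45 cells with a Calcrl UMI also had a Ramp1 UMI (57.8%), against 41.0% of the cells without Calcrl. These 2 shares are not compared at equal depth here, so a part of depth in their difference is not known. Cells of 1 library share their source, so these shares are given as a description without a test.

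Genes whose levels followed the members most closely over the 24 sums of 6 classes and 4 libraries were found by Pearson correlation of log2 CPM, as a description of sums that share libraries and classes. The classes were arterial-like, capillary-like, venous-like, pericyte-like with its mixed droplets, smooth muscle-like and erythroid-like. Erythroid-like sums also held endothelial markers, at 13501 to 16656 CPM. The part of endothelial RNA in the correlations was not tested. For Ramp2 the genes that followed most closely were Cd34, a surface glycoprotein of endothelium (r = 0.996), Tmtc2 (0.994) and Ppp1r13b (0.993). For Calcrl they were Cdc14a (0.93), Cpd, a carboxypeptidase (0.92), and Lcp1 (0.92), and for Adm Gm16046, Shroom1 and Gm35572 (0.93 each). Ramp1 and Ramp3, at means of 16.7 and 13.3 CPM over these sums, were under the minimum of 20 CPM set for members. The other genes had no minimum over these sums, where Lcp1 averaged 7.67 CPM and Gm35572 10.8 CPM. The same was done over 40 sums of the fine endothelial clusters, a choice made after seeing the data, with a lower minimum level for the members. There the closest genes were Cdc42ep4 for Adm (0.78), Man2a1 for Calcrl (0.75), Cldn5, a tight junction protein, for Ramp2 (0.85) and Caskin2 for Ramp3 (0.73).

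Related genes were read in endothelial-like cells as the setting for the members, from lists chosen with earlier results of these data known. Of 15 HIF targets other than Adm, 13 were tested, 3 rose and 0 fell, with a median log2 difference of 0.13 against 0.00 over all genes tested, of which 0.774% were called higher. DESeq2 called 2 of them, Ankrd37 and Bnip3. Ankrd37, an ankyrin repeat protein, was 95.6 and 94.9 CPM on PLX5622 diet and 31.9 and 38.3 CPM on control diet (log2 1.45 ± 0.11, adjusted p = 7.02e-07). Bnip3, a mitophagy receptor, was 67.6 and 73.0 CPM on PLX5622 diet and 43.6 and 52.3 CPM on control diet (0.57 ± 0.11, adjusted p = 0.0131). Ldha, the lactate dehydrogenase subunit, was 373 and 297 CPM on PLX5622 diet and 197 and 243 CPM on control diet (0.64 ± 0.14, adjusted p = 0.0361). The call on Ldha was lost with DESeq2 (adjusted p = 0.556), without PLX5622 diet replicate 1 (0.47, adjusted p = 0.184) and without control diet replicate 1 (0.46, adjusted p = 0.140). In these 3 genes, as in Adm, both PLX5622 libraries lay above both control libraries, which largely follows from their passing on the same libraries. A shared cause was not tested. The glucose transporter Slc2a1 (0.08 ± 0.14), Ndrg1 (0.20 ± 0.11), Higd1a (0.17 ± 0.10), the oxygen sensor Egln1 (0.07 ± 0.10), Ddit4 (0.13 ± 0.12) and the glycolytic enzyme Pgk1 (0.13 ± 0.09) did not pass. Not every listed target leaned upward. Mean CPM was lower on PLX5622 diet than on control diet for Vegfa (0.88 against 1.11), Pdk1 (16.8 against 17.1) and Kdm3a (42.5 against 45.4). Ankrd37, Bnip3 and Ldha passed in capillary-like and venous-like cells as well, and none of the 12 tested HIF targets passed in arterial-like cells with edgeR, where Ankrd37 stood at 0.84 ± 0.21 (adjusted p = 0.126).

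Among enzymes that act on the peptide, Pam, which amidates it, differed by 0.04 ± 0.11 on the log2 scale and Mme, the peptidase neprilysin, by 0.09 ± 0.38, and neither passed. Of 8 other ligands and receptors of the calcitonin family 3 were tested and none passed with edgeR or DESeq2, while 2 had an unadjusted p under 0.05. Ackr3, a scavenger receptor for adrenomedullin, averaged 104.7 ± 6.68 CPM on PLX5622 diet and 78.5 ± 19.95 CPM on control diet (SD, 2 libraries each), apart between the diets. Its log2 difference of 0.49 ± 0.12 missed the threshold (adjusted p = 0.0669), and it passed in capillary-like cells (0.59 ± 0.12, adjusted p = 0.00469). Gpr182 was 3.19 and 2.51 CPM on PLX5622 diet and 1.15 and 1.58 CPM on control diet (0.98 ± 0.30, adjusted p = 0.173), and Crcp differed by -0.11 ± 0.11. Adm2, Calcb, Iapp and Calcr had 0 UMIs in endothelial-like cells and Calca had 7.

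The machinery downstream of the receptor showed no call in endothelial-like cells. Of 35 genes of the stimulatory G protein and cyclic AMP pathway 30 were tested, and edgeR called 0 higher and 0 lower, with a median log2 difference of 0.08. DESeq2 also called 0, and 5 had an unadjusted p under 0.05. The stimulatory G protein subunit Gnas (0.12 ± 0.14), the kinase anchor Akap12 (0.26 ± 0.12), Gnb1 (0.07 ± 0.11), the kinase subunit Prkar1a (-0.02 ± 0.11), the phosphodiesterase Pde2a (0.22 ± 0.10) and the small GTPase Rap1b (-0.08 ± 0.10) were its most abundant members. Pde4b, another phosphodiesterase, was the 1 gene of the list to pass in any zone, in venous-like cells (0.49 ± 0.11, adjusted p = 0.0177). Of 11 other receptors that can pair with RAMPs 3 were tested, none passed with edgeR or DESeq2 and 2 had an unadjusted p under 0.05, one of them Ackr3, which this list also holds, and the other Gper1 at -0.62 ± 0.20 (adjusted p = 0.192) and Pth1r at -0.20 ± 0.29. Of 7 other receptors that couple to the same G protein 4 were tested, none passed with either tool and 0 had an unadjusted p under 0.05.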

How the data were processed

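The deposited matrices hold raw UMI counts, empty droplets included, in Cell Ranger's output format per the file headers, and their values are whole numbers. Libraries were 10x Genomics 3 prime v3.1, per the labels' protocols. The submitters' processing notes name Cell Ranger 6.0.1, Seurat 4.0, mm10 and mm39, without saying which build the counts come from. The members and gene lists were chosen with earlier results of these data known.

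Cells with at least 1000 UMIs, 500 genes and at most 10% mitochondrial UMIs were clustered (2000 variable genes, 30 components, 15 neighbours, Leiden resolution 0.5, igraph 0.11.9, scikit-learn 1.9.0). Endothelial-like cells were clustered again with 20 components, at resolution 0.5 and, for the fine clusters, 1. A set of 190 genes, with the 5 members and the listed genes, took no part in this second clustering. From the clustering of all cells and of mural cells only the 5 members were left out. Clusters were named from at least 3 markers found in 25% of their cells. The markers had to stand at 4-fold for other classes, 2-fold for arterial-like and venous-like and, against arterial-like cells alone, 1.2-fold for capillary-like cells. These limits were chosen with the clusters in view. A cluster of all cells that matched no other class was taken as endothelial, without a marker rule of its own. No doublet caller was run; leaving out the 5% of cells with the most UMIs, or cells with 2 or more mural UMIs, served instead.

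Counts were summed per library and class, where every library had 20 cells or more, and tested with edgeR 4.0.16 (R 4.3.3; TMM, default low-count filter, robust quasi-likelihood, two-sided). Standard errors are the log2 difference over the root of F. The zone by diet model used 12 sums with the library as block. On simulated counts of the endothelial-like sums (12796 genes, 200 changed), 51% of 1.5-fold and 77% of 2-fold changes were recovered, with 8 false calls. DESeq2 1.42.0 and limma 3.58.1 served as other tools. Replicate libraries differed by more than counting noise (chi-square per degree of freedom 5.77 for the PLX5622 pair and 9.16 for the control pair). Intervals and floors (3 counts for a count of 0) cover counting error only. Named genes are the 5 members, listed genes that passed in endothelial-like cells and up to 6 others per list with the highest mean CPM. Also named are the 3 genes most like each member with a mean of at least 20 CPM, a minimum that was lower over the fine clusters. Some named genes are outside that rule and were chosen after their values were seen. They are genes that passed in a single zone (Ackr3, Pde4b), HIF targets with a lower mean (Vegfa, Pdk1, Kdm3a), the leading genes of clusters, Vps25 and Gm11978. Some listed genes are not reported here.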

Additional observations from a re-analysis of the deposited data

Results flagged for a closer look

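The diet difference of Calcrl ran in opposite directions in smooth muscle-like and endothelial-like cells. Every PLX5622 library lay below both control libraries in smooth muscle-like cells, at 28.4 and 26.9 CPM on PLX5622 diet and 41.9 and 40.9 CPM on control diet. Every PLX5622 library lay above both control libraries in endothelial-like cells, at 107.3 and 104.1 CPM on PLX5622 diet and 87.2 and 82.1 CPM on control diet. The contrast of the 2 log2 differences, smooth muscle-like minus endothelial-like, was -0.93 ± 0.41, and it did not pass in edgeR's quasi-likelihood test with Benjamini-Hochberg adjustment over 12150 genes (adjusted p = 0.880). It rests on 10 and 14 UMIs on PLX5622 diet and 13 and 22 UMIs on control diet in smooth muscle-like cells. The item was picked after seeing the data, because the diets were apart in opposite directions, so that separation is no support for it. The share of all genes that separate this way was not counted. In neither class did the diet difference of Calcrl pass at the main setting.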

How the results depend on the processing

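No diet difference of a member that passed changed sign in the alternatives run. With the labels' replicate number as a block, the paired fit called 108 genes in arterial-like, 229 in capillary-like and 377 in venous-like cells, against 27, 121 and 145 without it. In pericyte-like and smooth muscle-like cells it called 0 and 0, against 4 and 3 (unadjusted p under 0.05 for 361 and 249 genes with the block). Deviations of replicate 1 from the diet mean correlated at 0.0307 between the diets. With 2 libraries per diet, replicate 2 only mirrors this value, so whether the numbers pair the libraries was not settled. The block added calls on Calcrl in endothelial-like (adjusted p = 0.0444 in edgeR), capillary-like and venous-like cells, on Ramp3 in capillary-like cells and on Adm in venous-like cells. DESeq2 called 11 arterial-like, 53 capillary-like, 68 venous-like, 0 pericyte-like and 0 smooth muscle-like genes (unadjusted 60 and 39 in the last 2), and 1 in each zone by diet interaction. Without the low-count filter the counts were 329 for endothelial-like, 52 arterial-like, 195 capillary-like, 227 venous-like and 9 smooth muscle-like cells, and 24 and 15 for the interactions of arterial-like and venous-like with capillary-like cells. Without normalization factors smooth muscle-like cells had 7 calls, and with equal cluster weight, in limma on 11818 genes, endothelial-like cells had 88, against 140 with limma-voom on the pooled sums of 12796 genes. Leaving out 1 library at a time gave 104 to 190 calls in endothelial-like, 31 to 116 in arterial-like, 108 to 260 in capillary-like, 126 to 275 in venous-like, 2 to 18 in pericyte-like and 2 to 12 in smooth muscle-like cells, and 14 to 34 and 10 to 12 for the interactions. Thinned to 1000 UMIs, log2 zone ratios were 0.25 for Ramp2 (capillary-like over arterial-like), 2.11 for Adm and -0.56 for Ramp3 (both venous-like over arterial-like). With finer clustering they were 0.98 for Adm and 0.26 for Ramp2 (venous-like over arterial-like), and -0.53 for Adm, 0.32 for Calcrl and -0.00072 for Ramp2 (venous-like over capillary-like). In all of these the cause was not tested. The pericyte-like alternative without endothelial-rich droplets could not be fitted, since control diet replicate 1 kept 8 cells. The few cells limit every member in pericyte-like cells with little endothelial RNA.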

Other observations

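Of 411 Ramp1 UMIs in kept cells, 202 (49.1%) came from 110 cells of a cluster named from astrocyte markers and 170 (41.4%) from smooth muscle-like cells. That cluster was mixed. Its astrocyte markers summed to 4506 and 13775 CPM on PLX5622 diet and 8906 and 9259 CPM on control diet, but PLX5622 diet replicate 1 also held 4770 CPM of fibroblast and 2967 CPM of pericyte markers, and control diet replicate 1 held 13887 CPM of microglia markers. Their part in the Ramp1 counts was not tested. In this cluster Ramp1 stood at 166 and 284 CPM on PLX5622 diet and 137 and 259 CPM on control diet, so the diets overlapped, and the class had too few cells for a test. It had a UMI in 47.3% of these cells, at a median of 4995 UMIs.

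Fenestrated-like cells, led by Plvap, the protein of the diaphragms of leaky capillaries, appeared in no PLX5622 library and in both control libraries, as 6 and 13 cells. Their Ramp3 level was 252 and 533 CPM (6 and 54 UMIs) and their Calcrl level 84.1 and 326 CPM (2 and 33 UMIs), while Adm had 0 and 2 UMIs. They were kept apart from the endothelial-like sums; with them, a setting added once the data had been seen, the log2 difference of Ramp3 was -0.80 (edgeR, adjusted p = 0.00128).

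A cluster of 61 cells led by Apln, a gene of endothelial tip cells, was left unnamed. Adm was 134.9 and 218 CPM there on PLX5622 diet and 121.7 and 20.3 CPM on control diet, from 12 and 66 UMIs and from 4 and 1 UMIs, in 15 and 34 cells and in 5 and 7 cells.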
